A study of Solenopsis invicta with 52 samples.

Results

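The data described here come from SB/SB workers of Solenopsis invicta, the red imported fire ant, that spent their adult life in polygyne colonies but had developed in colonies of either social form. Members were chosen by their labels alone, as all libraries of the groups pBB and mpBB. They make up 26 of the 52 libraries of the series. The pBB workers were SB/SB, developed in polygyne colonies and lived as adults in polygyne hosts, with 7 brain and 6 gaster libraries. The mpBB workers were SB/SB too and had polygyne hosts, but developed in monogyne colonies, also with 7 brain and 6 gaster libraries. The 26 libraries came from 16 single workers, 8 of each origin, and 10 of these workers, 5 of each origin, gave both tissues. The series also holds pBL, with the genotype SB/Sb and with polygyne colonies as origin and host, and mBB, with the genotype SB/SB and with monogyne colonies as origin and host. Both served here to estimate the spread of each gene and as further levels beside the compared groups.

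All workers shared the rest of their treatment. Dark pupae were moved into a host colony of 250 workers that did not stem from the stock colony of the donor. Polygyne hosts held 2 egg-laying SB/Sb queens whose mating status was unknown. Minor workers of 0.6 to 0.9 mg were sampled 16 days later, at an age of 14 to 16 days. Donors and hosts came from 10 monogyne and 9 polygyne stock colonies, and a stock colony served only once per treatment in either role. The labels do not say how many sampled workers shared a host. Colony of origin covers the brood environment up to the pupa and the genetic background of the donor colony. It also goes with the transfer, since mpBB pupae moved to a host of the other social form and pBB pupae did not. These cannot be told apart in this design.

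In fire ants, monogyne colonies have a single egg-laying queen and polygyne colonies have several. The form is tied to a supergene, a block of linked genes inherited together, with the haplotypes SB and Sb. Workers with Sb are found in polygyne colonies, whereas SB/SB workers live in both forms, so that SB/SB workers allow colony of origin to be compared at 1 genotype. The brain is the organ of behaviour and odour processing. The gaster, the part of the abdomen behind the waist, holds the fat body, gut and venom apparatus. The comparison asks whether the colony in which a worker developed leaves a difference in adult gene expression once all adults live in polygyne colonies, and whether such differences run the same way in both tissues.

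The files give genes as 16314 identifiers that begin with SINVBB1, without names. None of them (0 matched) occurs in the gene table used here, so that genes are given by identifier and no function is assigned to any. For the same reason neither the genotype gene nor markers of brain and gaster could be looked up by name. Values are CPM, read counts relative to the library's sum over genes, scaled by TMM within a tissue. Brain and gaster libraries were made with different kits, so that levels are compared between groups of a tissue and never between tissues. A whole brain or gaster mixes many cell types, and a lower level from fewer cells of a type cannot be told apart from less RNA per cell.

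Compared brain libraries held 22.7 to 45.2 M gene counts in pBB (30.2 ± 7.62 M, SD, n = 7) and 14.8 to 47.0 M in mpBB (29.3 ± 12.01 M, n = 7). Gaster libraries held 30.01 to 69.5 M in pBB (54.6 ± 15.98 M, SD, n = 6) and 53.6 to 77.3 M in mpBB (64.9 ± 8.24 M, n = 6). The smallest gaster library was pBB replicate 1, in which 53.4% of reads were unmapped. Of 7 library summaries per tissue (total, genes with at least 10 counts, share of the 20 most abundant genes, unmapped share and 3 principal components), none passed a test by origin after adjustment. The smallest adjusted value was 0.233 in brain and 0.242 in gaster (exact permutation test, two-sided, Benjamini-Hochberg). The brain summary with the smallest p was the third component, with 9.80% of the variance, where pBB had a mean of 6.84 ± 8.67 and mpBB -6.84 ± 12.8 (exact permutation p = 0.0332, SD, n = 7 each). In gaster it was the second component, with 11.1% of the variance, at 8.79 ± 13.9 in pBB and -8.79 ± 13.7 in mpBB (exact permutation p = 0.0519, n = 6 each). The ranges of the 2 origins overlapped on both components.

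As a check of the genotype labels, the genes that were higher in pBL than in mBB and averaged under 1 CPM in mBB were summed per library, which gave 35 genes in brain and 44 in gaster. In brain the sums were 8.76 to 36.8 CPM in pBB and 10.1 to 19.4 CPM in mpBB, against 192 to 254 CPM in pBL and 8.74 to 17.1 CPM in mBB. In gaster they were 7.15 to 13.95 CPM in pBB and 6.70 to 19.7 CPM in mpBB, against 130.4 to 208 CPM in pBL and 5.30 to 7.76 CPM in mBB. All 26 libraries labelled SB/SB in polygyne hosts thus lay below every pBL library on this sum. Single genes did overlap. The lowest pBL level was reached by 7 of the 35 brain genes in pBB and by 10 in mpBB. Of the 44 gaster genes, 8 reached it in pBB and 12 in mpBB. The genes were picked on pBL and mBB libraries of this series, which differ in host and origin as well as genotype. The gap between those 2 groups follows from that choice, while pBB and mpBB took no part in it.

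In brain, no single gene passed the test of pBB against mpBB. Of 12006 genes tested, 0 (0%) had an adjusted p under 0.05 in the quasi-likelihood test of edgeR, and the smallest adjusted p was 0.367. At an unadjusted p under 0.05 there were 188 genes (1.57%), 92 higher and 96 lower in pBB. At an unadjusted p under 0.01 there were 43, 17 higher and 26 lower. If no gene differed and p-values were evenly spread, a share of 0.05 of the genes would be expected under the first threshold. That is more than was found. Over the alternative fits the count was 149 (without pBB replicate 1) to 486 (with surrogate variables). The shortfall is thus not read as a lack of differences. DESeq2 called 1 gene on the same data (0.00833%), higher in pBB. Of the 188 genes, 50 stayed under 0.05 in each of the 14 fits that left out 1 of the compared libraries, 24 higher and 26 lower. The 188 genes were picked on these same libraries, so that staying under 0.05 is partly fixed by the choice.

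In gaster the result was alike in kind. Of 11574 genes tested, 0 passed by edgeR (0%), with a smallest adjusted p of 0.717. An unadjusted p under 0.05 was met by 315 genes (2.72%), 155 higher and 160 lower in pBB, and one under 0.01 by 61, 27 higher and 34 lower. The share under 0.05 was again below the share expected if no gene differed and p-values were evenly spread. Over the alternative fits the count was 251 (genes over 1 CPM in at least 6 libraries) to 977 (workers with an identification number over 140 alone). With surrogate variables it was 854. Here too the shortfall is not read as a lack of differences. DESeq2 called 6 genes (0.0518%), 1 higher and 5 lower in pBB, and left 9 genes without an adjusted p. Of the 315 genes, 92 stayed under 0.05 in each of the 12 fits without 1 compared library, 37 higher and 55 lower. Here too the genes were picked on the same libraries, so that this count is partly fixed by the choice. Without gaster pBB replicate 1, the library with the high unmapped share, edgeR again passed 0 genes and 299 had an unadjusted p under 0.05.

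The precision of these tests varied with the level of a gene. The median standard error of a log2 fold change was 0.17 in brain and 0.18 in gaster, and the median size of the fold change itself was 0.08 and 0.10. In brain, 10117 genes (84.3%) had a 95% interval that lay wholly inside a 2-fold difference in either direction, and 7852 (65.4%) one inside a 1.5-fold difference. In gaster these were 9172 (79.2%) and 6771 (58.5%). Among brain genes of 10 to 100 CPM the interval lay inside 2-fold for 97.5% of 5487 genes, and among those over 100 CPM for 99.6% of 2243. The gaster shares were 94.4% of 5209 genes and 92.9% of 1776. Below 1 CPM they dropped to 21.9% of 1468 genes in brain and 25.1% of 1794 in gaster. For most such genes the interval thus reached past a 2-fold difference. The intervals are not adjusted for the number of genes tested, and they do not show which differences the adjusted test could detect.

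Fold changes past 2-fold were found in 133 brain genes, 57 higher and 76 lower in pBB. Of these, 55 averaged under 1 CPM, 57 between 1 and 10 CPM, 21 between 10 and 100 CPM and 0 over 100 CPM. In gaster 231 genes had one, 98 higher and 133 lower, of which 142 averaged under 1 CPM, 68 between 1 and 10 CPM, 17 between 10 and 100 CPM and 4 over 100 CPM. The 20 most abundant genes differed by -0.19 to 0.34 on the log2 scale in brain and by -0.47 to 0.46 in gaster, and 1 of them in each tissue had an unadjusted p under 0.05.

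**Figure D1:**
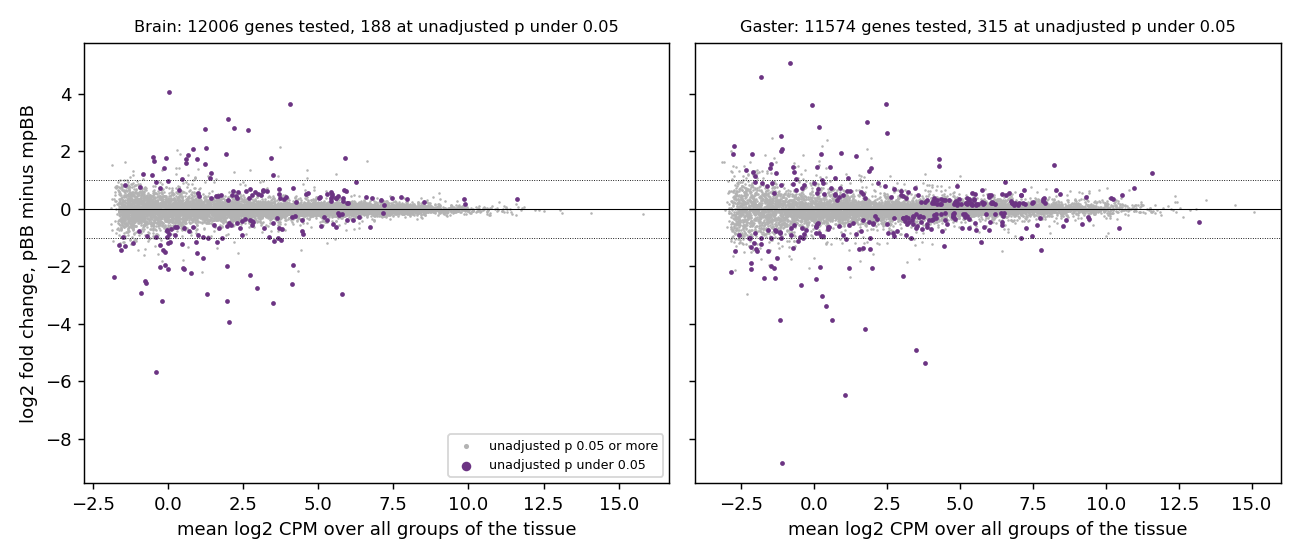
Log2 fold change of pBB over mpBB (vertical axis) against the mean log2 CPM over all 4 groups (horizontal axis) for each gene tested, brain left and gaster right. Dark points are the 188 brain and 315 gaster genes at an unadjusted p under 0.05, none of which passed after adjustment by edgeR, and dotted lines mark 2-fold. The scatter narrows with the level of the gene.

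Full separation of the groups was rare. In brain, 2 of 12006 genes had every pBB library above every mpBB library (0.0167%) and 1 had every pBB library below (0.00833%). In gaster 2 of 11574 genes were fully higher in pBB (0.0173%) and 7 fully lower (0.0605%). The genes given next were named after their values were seen. SINVBB1_10666 had 1.16, 2.32 and 4.35 CPM as lowest, median and highest of the pBB brains, and 0.468, 0.766 and 0.968 CPM in mpBB brains. Its log2 fold change was 1.74 ± 0.40 (SE; edgeR adjusted p = 0.556). SINVBB1_03899, the other fully higher gene, was at 0.409 to 0.783 CPM in pBB brains and 0.0692 to 0.377 CPM in mpBB brains. The fully lower gene, SINVBB1_05738a, was at 0.610, 0.744 and 2.42 CPM in pBB brains and at 2.56, 2.96 and 4.63 CPM in mpBB brains, with a log2 fold change of -1.70 ± 0.45 (edgeR adjusted p = 1.00). All 3 lie at low counts, and their levels in mBB and pBL brains overlapped with both compared groups. In gaster SINVBB1_07398 was at 9.59 to 12.3 CPM in pBB and 5.47 to 9.40 CPM in mpBB, and SINVBB1_13090 at 0.102 to 0.305 and 0.0197 to 0.0953 CPM. The 7 fully lower gaster genes had log2 fold changes of -0.96 to -0.23.

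The standard error of a difference rests on the spread between workers of a group and on the number of workers. Over 9731 brain genes with a mean log2 CPM above 1, the median SD of log2 CPM between workers was 0.24 in pBB and 0.22 in mpBB, and 57.0% of the genes spread more in pBB. Over 9076 gaster genes it was 0.23 in pBB and 0.27 in mpBB, and 38.9% spread more in pBB. These are descriptions with no test.

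SINVBB1_06613 had the smallest p in brain and was the gene called higher by DESeq2 in both tissues. It was high in some pBB workers and low in the others, with nothing in between. Brain pBB replicates 1, 3 and 5 had 43.6, 33.4 and 42.1 CPM, and replicates 2, 4, 6 and 7 had 1.46, 1.37, 0.909 and 0.477 CPM. The 7 mpBB brains were at 0.576 to 2.74 CPM, with a median of 1.28 CPM. Hence 3 pBB brains lay above every mpBB brain, 3 lay within the mpBB range and 1 below it. The SB/Sb brains of pBL were at 39.9 to 50.7 CPM and the mBB brains at 0.803 to 1.95 CPM, so that pBB replicates 1 and 5 lay within the range of SB/Sb brains and replicate 3 below it.

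The gasters repeated this by worker. Gaster pBB replicates 1, 3 and 5, the same workers, had 6.93, 5.28 and 5.04 CPM of SINVBB1_06613, and replicates 6, 7 and 8 had 0.290, 0.0847 and 0.497 CPM. The mpBB gasters were at 0.167 to 0.935 CPM, pBL gasters at 7.02 to 12.7 CPM and mBB gasters at 0.244 to 0.784 CPM. Of the 5 pBB workers with both tissues, 3 were thus high in both and 2 low in both. All mpBB libraries were low, and the 3 high pBB gasters lay below the pBL range. The log2 fold change was 3.65 ± 0.74 in brain (SE; edgeR adjusted p = 0.367, DESeq2 adjusted p = 0.00125) and 3.04 ± 0.72 in gaster (edgeR adjusted p = 0.717, DESeq2 adjusted p = 0.00578). Over the edgeR fits without 1 compared library the brain adjusted p was 0.0385 (without pBB replicate 7, log2 fold change 3.87) to 0.902 (without mpBB replicate 15). It was 0.999 with surrogate variables and 1.00 with the compared groups alone, that is, without the spread taken from pBL and mBB. In gaster no edgeR fit without 1 library passed, and the smallest adjusted p was 0.263. The sum of the genes used to check the genotype labels did not reach the pBL range in any pBB library, the high ones included. SINVBB1_06613 is 1 of the 44 summed in gaster and none of the 35 summed in brain.

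**Figure D2:**
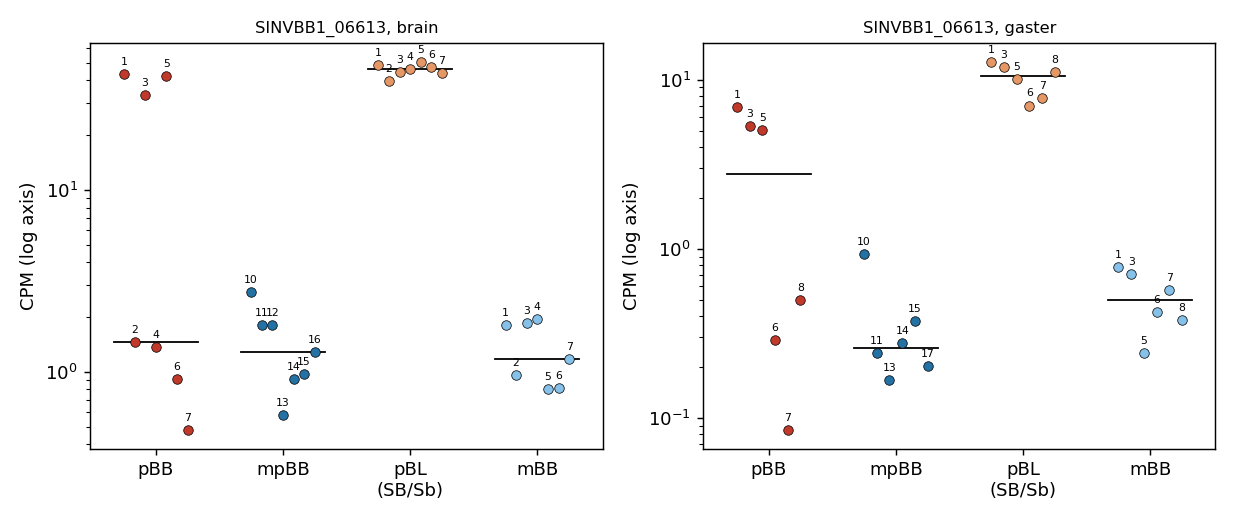
Level of SINVBB1_06613 in CPM (log axis) for every library, brain left and gaster right, by group. Points carry the replicate number, which marks the same worker in both tissues, and bars are group medians. Replicates 1, 3 and 5 of pBB lie at 33.4 to 43.6 CPM in brain and 5.04 to 6.93 CPM in gaster, apart from the other SB/SB libraries.

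SINVBB1_02469 was the gaster gene lower in pBB with the smallest p, and it split the mpBB workers rather than the pBB workers. The 6 pBB gasters were at 0.662 to 1.09 CPM, with a median of 0.902 CPM. Among mpBB gasters, replicates 10, 11, 14 and 15 had 13.7, 65.6, 42.5 and 38.0 CPM, and replicates 13 and 17 had 0.944 and 0.912 CPM. Thus 4 mpBB gasters lay above every pBB gaster, and the other 2 lay inside the pBB range. The mBB gasters, also of monogyne origin, split as well, with 17.6, 30.9 and 46.0 CPM in replicates 1, 3 and 7 and 0.623 to 0.999 CPM in the other 3. The pBL gasters, of polygyne origin, were at 0.807 to 1.74 CPM. The log2 fold change of pBB over mpBB was -4.90 ± 1.07 (SE; edgeR adjusted p = 0.717, DESeq2 adjusted p = 0.000315).

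The next row of the files, SINVBB1_02470, followed the same workers. It was at 0.403 to 1.13 CPM in pBB gasters. In mpBB it was at 35.6, 43.1, 16.1 and 76.2 CPM in replicates 10, 11, 14 and 15 and at 0.654 and 0.871 CPM in replicates 13 and 17. In mBB the same replicates 1, 3 and 7 had 64.4, 48.7 and 40.9 CPM, and the others at most 0.592 CPM. Its log2 fold change was -5.35 ± 1.25 (edgeR adjusted p = 0.717, DESeq2 adjusted p = 0.000386). The order of rows is that of the files, and whether it follows the genome is not given in the sources used here.

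Of the 5 gaster genes that DESeq2 called lower in pBB, 4 stand in rows 8655 to 8660 of the files. Beside the 2 genes above, these are the genes in rows 8655 and 8660, with log2 fold changes of -3.05 and -2.07 (DESeq2 adjusted p = 0.0102 each). In the row 8655 gene, mpBB replicates 10, 11, 14 and 15 had 1.08, 5.25, 3.29 and 3.83 CPM, and the other 2 had 0.152 and 0.436 CPM, against 0.128 to 0.481 CPM in pBB. Row 8659 had a log2 fold change of -1.37 (unadjusted p = 0.0110), whereas row 8656, inside the stretch, stood at -0.01 (unadjusted p = 0.983). Rows 8651 to 8654 had log2 fold changes of 0.13 to 0.48, and rows 8661 to 8663 of -0.65 to 0.50. The genes of the stretch were too low in brain to be tested: 4 of them had 103 to 235 counts summed over all brain libraries. In gaster 97.1% of the strand counts of SINVBB1_02469 and 98.8% of those of SINVBB1_02470 were in the column used.

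**Figure D3:**
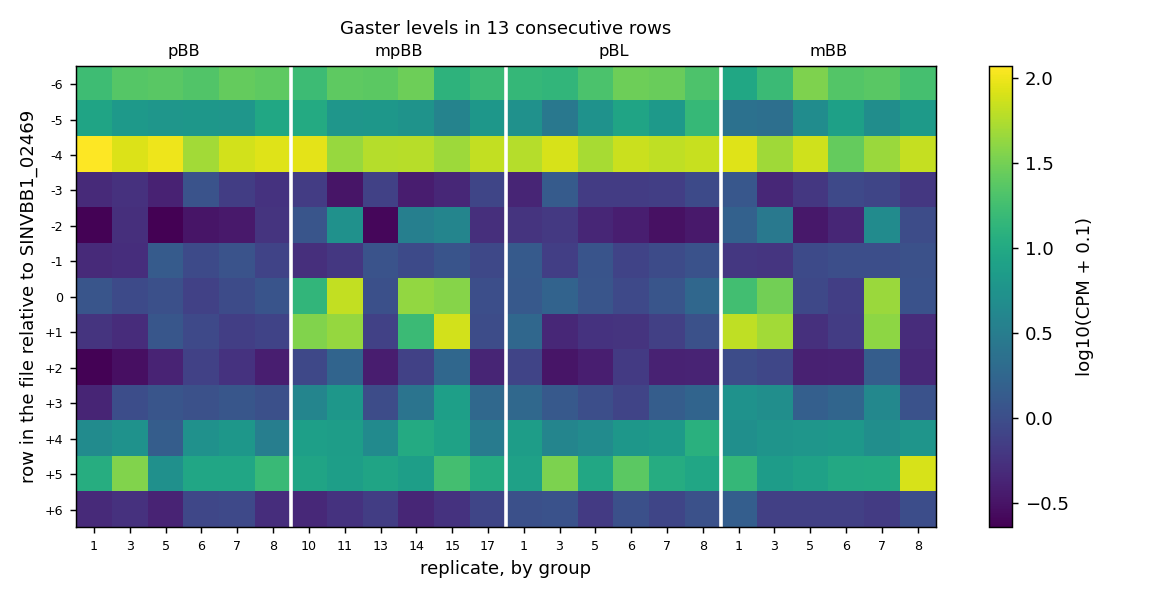
Gaster levels in the 6 rows before and the 6 rows after SINVBB1_02469 in the files (row 0), as log10 of CPM plus 0.1, with 1 column per library. In rows 0 and +1, mpBB replicates 10, 11, 14 and 15 and mBB replicates 1, 3 and 7 are bright, and all pBB and pBL libraries are dark. Rows -2 and +3 show the same libraries at lower levels.

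SINVBB1_04755 stood out by opposite differences in the 2 tissues. In brain it was at 12.5, 100.3 and 195 CPM in pBB as lowest, median and highest, and at 10.7, 14.2 and 78.2 CPM in mpBB. Brain pBB replicates 1, 4, 5 and 6 lay above every mpBB brain, and pBB replicate 7, at 12.5 CPM, lay among the low mpBB brains. In gaster it was at 0.742, 1.44 and 3.62 CPM in pBB and at 1.98, 8.18 and 16.4 CPM in mpBB. There, 4 pBB gasters lay below every mpBB gaster, and mpBB replicate 13, at 1.98 CPM, lay among the pBB values. The log2 fold change was 1.78 ± 0.58 in brain (SE; unadjusted p = 0.00495, edgeR adjusted p = 1.00) and -2.34 ± 0.53 in gaster (edgeR adjusted p = 0.717, DESeq2 adjusted p = 0.00578). The pBL brains were at 8.07 to 168 CPM and the mBB brains at 4.55 to 55.4 CPM, and the pBL gasters at 0.933 to 9.92 CPM and the mBB gasters at 9.68 to 24.4 CPM. Those groups share the host or the origin with the compared ones, and no comparison with them was tested.

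**Figure D4:**
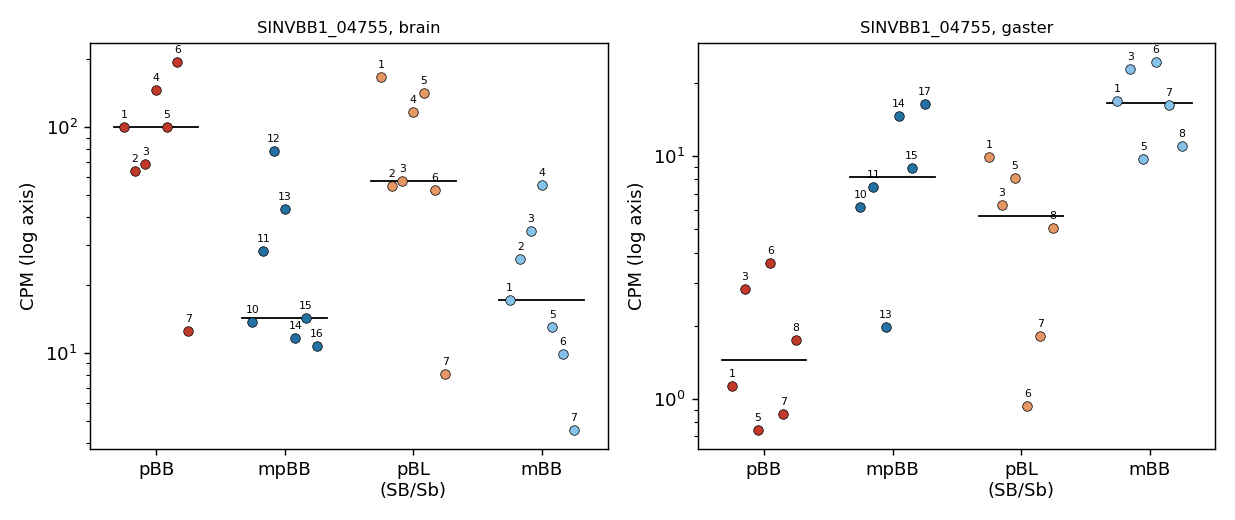
Level of SINVBB1_04755 in CPM (log axis) for every library, brain left and gaster right, by group. Points carry the replicate number and bars are group medians. The pBB median is 100.3 CPM against 14.2 CPM in mpBB in brain, and 1.44 CPM against 8.18 CPM in gaster, and the groups overlap in both tissues.

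Of the other brain genes taken by the smallest p, 1 rested on a single library. SINVBB1_11369 was at 1.13, 3.43 and 9.70 CPM in pBB brains as lowest, median and highest, and at 0.343, 0.830 and 1.56 CPM in mpBB brains. All pBB brains but replicate 1 lay above every mpBB brain, with a log2 fold change of 2.13 ± 0.52 (SE; edgeR adjusted p = 0.831). In gaster its log2 fold change was 0.73 ± 0.69, and it was 0.27 without pBB replicate 8, 0.44 without pBB replicate 6 and 1.30 without mpBB replicate 17. SINVBB1_00563 was at 8.93, 13.3 and 16.4 CPM in pBB brains and at 3.89, 64.7 and 308 CPM in mpBB brains, which gave a log2 fold change of -2.95 ± 0.74 (edgeR adjusted p = 0.910). The pBB brains lay close together, and mpBB replicates 10 to 15 were above all of them while replicate 16 was below. SINVBB1_00563 ranged over 12.3 to 363 CPM in pBL and 3.73 to 51.4 CPM in mBB brains, and was too low in gaster to be tested. SINVBB1_05182 had a log2 fold change of -3.95 ± 0.87 (edgeR adjusted p = 0.556) that rested on mpBB replicate 15, at 79.5 CPM. The other mpBB brains were at 0.685 to 2.92 CPM and the pBB brains at 0.378 to 1.46 CPM, and without that library the value was -0.91.

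In gaster the second gene higher in pBB was SINVBB1_02588. It was at 11.3, 40.9 and 63.6 CPM in pBB gasters as lowest, median and highest, and at 3.21, 15.3 and 18.7 CPM in mpBB gasters. Replicates 1, 3, 7 and 8 of pBB lay above every mpBB gaster, and replicates 5 and 6 within the mpBB range. The log2 fold change was 1.50 ± 0.40 (SE; edgeR adjusted p = 1.00). In the groups not compared it was at 11.7 to 23.97 CPM in pBL gasters and 6.98 to 15.5 CPM in mBB gasters. In brain the gene was at 0.447 to 1.24 CPM in pBB and 0.173 to 1.11 CPM in mpBB, with a log2 fold change of 0.28 ± 0.45 that ranged from 0.11 to 0.45 without 1 library each.

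Between tissues, 10661 genes were tested in both. An unadjusted p under 0.05 in both tissues was met by 17 of them (0.159%), which is 10.6% of the 161 such brain genes and 6.18% of the 275 such gaster genes. Of the 17 genes, 7 were higher and 7 lower in pBB in both tissues, and 3 had opposite signs. At an unadjusted p under 0.01 in both, 2 genes were left, SINVBB1_06613 with the same sign and SINVBB1_04755 with opposite signs. Across the 10661 genes the fold changes of the tissues had a Pearson r of 0.20 and a Spearman rho of 0.17, and 6147 (57.7%) had the same sign. Over the 8054 genes with a mean log2 CPM above 1 in both tissues, r was 0.25 and rho 0.23. These are descriptions across genes, which are not independent replicates, and 10 of the 16 workers contributed to both axes.

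**Figure D5:**
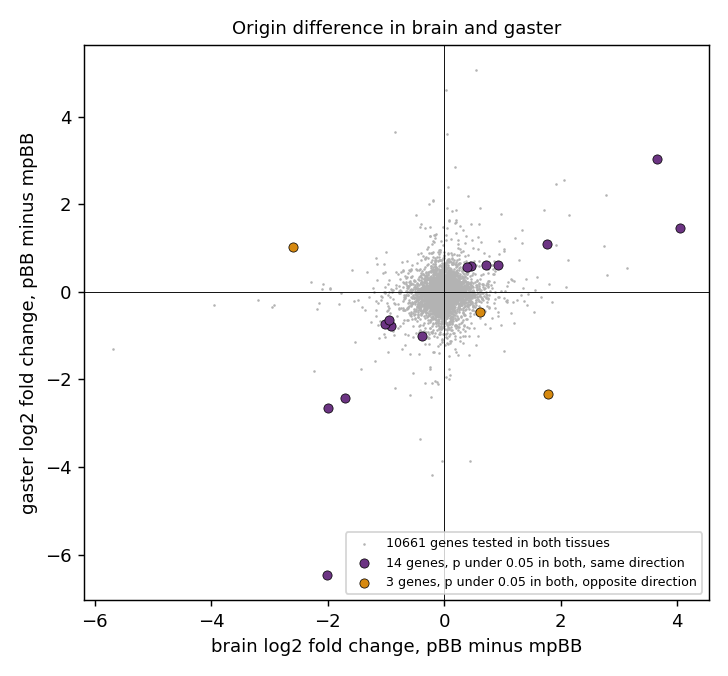
Log2 fold change of pBB over mpBB in gaster (vertical axis) against brain (horizontal axis) for the 10661 genes tested in both. Large points are the 17 genes at an unadjusted p under 0.05 in both tissues, 14 with the same sign and 3 with opposite signs. The point farthest to the upper left is SINVBB1_06793 and the lower right one at -2.34 in gaster is SINVBB1_04755.

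The genes higher in both tissues with the smallest larger p were SINVBB1_06613, given above, and SINVBB1_07805. SINVBB1_07805 was at 5.17, 8.16 and 68.1 CPM in pBB brains and at 3.62, 5.19 and 9.72 CPM in mpBB brains, which gave a log2 fold change of 1.76 ± 0.49 (SE; unadjusted p = 0.00135, edgeR adjusted p = 1.00). In gaster it was at 0.642, 1.97 and 7.88 CPM in pBB and 0.776, 1.32 and 1.73 CPM in mpBB, with 1.09 ± 0.45 (unadjusted p = 0.0228). The highest library in both tissues was pBB replicate 6, the same worker. Without it the values were 0.95 in brain and 0.40 in gaster.

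Of the genes lower in both tissues, SINVBB1_05365 showed the more even difference. In brain it was at 0.755, 1.36 and 2.15 CPM in pBB and at 1.66, 2.47 and 4.43 CPM in mpBB, with a log2 fold change of -0.90 ± 0.33 (SE; unadjusted p = 0.0104, edgeR adjusted p = 1.00). In gaster it was at 4.25, 5.11 and 5.98 CPM in pBB and at 4.52, 9.41 and 11.5 CPM in mpBB, with -0.78 ± 0.22 (unadjusted p = 0.00204, edgeR adjusted p = 1.00). Every mpBB gaster but replicate 13 lay above all pBB gasters. The gene was at 3.34 to 8.57 CPM in pBL and 6.08 to 11.4 CPM in mBB gasters. SINVBB1_07479 was at 55.2 to 92.9 CPM in pBB brains and 56.5 to 128 CPM in mpBB brains (log2 fold change -0.39 ± 0.18, unadjusted p = 0.0398). In gaster it was at 79.7 to 109 CPM in pBB and 77.6 to 393.5 CPM in mpBB (-1.01 ± 0.39, unadjusted p = 0.0155), and without mpBB replicate 14, at 393.5 CPM, the gaster value was -0.64.

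The 3 genes of opposite sign were SINVBB1_04755, SINVBB1_07647 and SINVBB1_06793, of which the last 2 were named after their values were seen. SINVBB1_07647 averaged 79.4 ± 49.5 CPM in pBB brains and 51.6 ± 17.4 CPM in mpBB brains (SD, n = 7 each), and 7484 ± 945 CPM in pBB gasters and 10347 ± 2564 CPM in mpBB gasters (n = 6 each). Its log2 fold changes were 0.62 and -0.47. SINVBB1_06793 averaged 4.52 ± 1.76 CPM in pBB brains and 27.4 ± 26.3 CPM in mpBB brains, and 0.771 ± 0.227 CPM in pBB gasters and 0.380 ± 0.153 CPM in mpBB gasters. Its log2 fold changes were -2.60 and 1.02.

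Whether the origin difference differs between the tissues was tested directly in a joint fit of all 52 libraries. This fit, by edgeR and by DESeq2, treated the brain and gaster libraries of the same worker as independent. By edgeR, 0 of 13452 genes (0%) had an adjusted p under 0.05. The smallest adjusted p was 0.153, and 324 genes had an unadjusted p under 0.05. DESeq2 called 3 genes (0.0223%). SINVBB1_04755 had the smallest edgeR p, with a gaster minus brain difference of -4.13 ± 0.84 on the log2 scale (SE; edgeR adjusted p = 0.153, DESeq2 adjusted p = 0.000432). Without mpBB replicate 12, which has a brain library only, it was -4.65 with an edgeR adjusted p of 0.0179. Without mpBB replicate 11, 1 gene passed too, though SINVBB1_04755 then had an edgeR adjusted p of 0.188. Over the fits without 1 worker its edgeR adjusted p was 0.0179 to 0.977, and it was 0.296 with the compared groups alone. With the individual as a block among workers with both tissues it was -4.11, with an edgeR adjusted p of 1.00.

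SINVBB1_01712 was the gene with the next smallest p. It was at 0.462, 12.7 and 30.4 CPM in pBB gasters as lowest, median and highest, and at 0.213, 0.468 and 4.00 CPM in mpBB gasters. Replicates 1, 5, 6 and 8 of pBB lay above every mpBB gaster and replicates 3 and 7 within the mpBB range. The gaster log2 fold change was 3.66 ± 0.99 (SE; edgeR adjusted p = 1.00), and in brain, where all pBB and mpBB libraries were at 0.0581 to 1.02 CPM, it was -0.85 ± 0.51. The gaster minus brain difference was 3.90 ± 0.94 (edgeR adjusted p = 0.774, DESeq2 adjusted p = 0.0319). In the column used stood 89.7% of this gene's gaster strand counts. SINVBB1_04374 was at 15.4 to 78.9 CPM in pBB gasters and 5.48 to 15.9 CPM in mpBB gasters, where 5 of 6 pBB libraries lay above every mpBB library, and at 1.57 to 5.23 CPM in pBB brains and 2.92 to 5.996 CPM in mpBB brains. Its log2 fold change was 1.75 ± 0.51 in gaster and -0.47 ± 0.24 in brain, and their difference 2.16 ± 0.54 (edgeR adjusted p = 0.774). The third gene that DESeq2 called, SINVBB1_10857a, had an edgeR adjusted p of 1.00 and a very low mean level of -2.43 log2 CPM.

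The labels give each worker an identification number, and lead genes were also fitted among workers numbered under 140 and over 140, a split set with earlier results of these libraries known. What the number stands for is not given in the labels. On the first principal component of the 12 compared gasters, which holds 21.6% of the variance, the 6 under 140 lay at -35.03 to 13.9 and the 6 over 140 at 10.8 to 21.3. SINVBB1_06613 had log2 fold changes of 4.02 and 3.18 in brain and 3.05 and 2.98 in gaster. SINVBB1_02469 had -4.17 and -5.46 in gaster. SINVBB1_04755 had 2.59 and 1.50 in brain and -2.46 and -2.22 in gaster. Each side held 3 or 4 libraries per group and tissue, and 0 genes passed by edgeR in any of these fits. The genes were chosen on all of these libraries together, so that a like direction on both sides is largely fixed by the choice, and the values are given as a description.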

How the data were processed

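The authors deposited raw read counts per gene, 1 file per library, in the 3 columns of STAR's gene counting (unstranded and each strand). Trim Galore, STAR and edgeR are named per the submitters' processing notes, while the sources used here give no version, genome build or annotation. Brains were processed with a SMARTer low-input kit without strand information and gasters with the stranded KAPA kit, per the labels' protocols. Deposited counts of the unstranded column were used for brain and of the reverse-strand column for gaster, where it held 96.1% to 96.9% of the strand counts of the compared libraries. Without strand, brain reads of a gene and of an antisense partner cannot be told apart, and genes with near-identical copies are uncertain. Rows that name no gene stayed out of all tests. In brain they held 6.73% to 29.2% (unmapped), 6.38% to 10.3% (multimapped), 34.9% to 43.0% (no feature) and 1.40% to 2.56% (ambiguous) of the reads. In gaster the same rows held 11.2% to 53.4%, 7.68% to 16.3%, 9.75% to 15.9% and 0.298% to 0.683%.

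The counts were tested with edgeR 4.0.16 under R 4.3.3 (TMM, edgeR's filter on low counts by group, quasi-likelihood F-test, two-sided, Benjamini-Hochberg over all genes tested, threshold 0.05). Each tissue was fitted separately with all 4 groups, and the contrast was pBB minus mpBB. The tissue difference was tested in a joint fit on the unstranded column. The log2 CPM of components and spreads used a prior count of 2, and components the 1000 most variable genes. Standard errors came from the F statistic. The test was also run on simulated counts drawn independently for each gene and library. Those counts hold no variation shared between genes or workers, so that they say nothing on it. Groups follow the labels, and no 2 compared libraries had the same total. If workers of the same group shared a host, p-values could be too small. Sharing of a host between pBB and mpBB was not modelled, and its effect on p-values was not tested.

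Named genes had a mean log2 CPM above 1 and the smallest p, 2 per direction and comparison, plus up to 2 per direction called by DESeq2 1.42.0. The groups, rule and tests were chosen with earlier results of these data known. Alternatives were DESeq2, RLE factors, other filters, the compared groups alone, sva 3.50.0 with 5 surrogate variables per tissue, the number split at 140, merged runs, the other column, the individual as a block and leaving out each library. Planned gene lists were not run, because 0 of 16314 identifiers matched the 16996 genes of the RefSeq table (assembly UNIL_Sinv_3.0), and no sequence is shown.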

Additional observations from a re-analysis of the deposited data

Results flagged for a closer look

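In groups of 6 or 7 libraries, 13 values stood apart from the rest of their group by Dixon's test at the 95% level. Chance alone does this in about 1 of 20 groups if values are normally distributed. CPM and percentages were used without a log and need not be so distributed. The 13 values are not set against the number of groups looked at. The genes among them were chosen by a small p on these same libraries, so that this rate need not hold for them. No explanation of them was tested.

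For single genes, mpBB replicate 15 had 79.5 CPM of SINVBB1_05182 in brain, against 2.92 CPM in the next highest mpBB brain. In gaster pBB replicate 8 had 59.0 CPM of that gene, against 27.5 CPM in the next pBB gaster. The brain of mpBB replicate 14 had 308 CPM of SINVBB1_00563, against 98.6 CPM in the next one, and its gaster 393.5 CPM of SINVBB1_07479, against 193 CPM. The worker pBB replicate 6 was highest for SINVBB1_07805 in both tissues, with 68.1 CPM in brain, against 19.6 CPM in the next pBB brain, and 7.88 CPM in gaster, against 2.67 CPM. Gaster mpBB replicate 10 was highest of its group for SINVBB1_06613, at 0.935 CPM against 0.375 CPM, and for SINVBB1_01712, at 4.00 CPM against 0.746 CPM.

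Among library summaries, brain pBB replicate 4 had 6.73% unmapped reads, against at least 16.8% in the other pBB brains, and in brain mpBB replicate 12 the 20 most abundant genes took 12.3% of counts, against at least 14.2%. Gaster pBB replicate 1 had 53.4% unmapped reads, against at most 23.1% in the other pBB gasters, and 18.3% of its counts in the 20 most abundant genes, against at most 16.4%. On the second principal component gaster mpBB replicate 13 lay at 17.6, against at most -6.31 in the other mpBB gasters. The same replicate was low for SINVBB1_02469 and lay among the pBB values for SINVBB1_04755 and SINVBB1_05365.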

How the results depend on the processing

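With edgeR the count of genes past an adjusted p of 0.05 stayed at 0 in both tissues under RLE factors, both other filters, the compared groups alone, surrogate variables, the number covariate, either side of the number split, merged runs (brain) and the unstranded column (gaster). DESeq2 gave 1 gene in brain, 6 in gaster and 3 for the tissue difference. Leaving out 1 library gave 0 to 1 in brain (1 without pBB replicate 7), 0 in each gaster fit and 0 to 1 for the tissue difference (1 without mpBB replicate 11 and 1 without mpBB replicate 12). At an unadjusted p under 0.05, brain had 188 genes, 310 with no filter on low counts, 486 with surrogate variables and 149 to 279 without 1 library. Gaster had 315, 491 with no filter, 854 with surrogate variables, 498 and 977 among workers numbered under and over 140 alone, and 269 to 430 without 1 library. No filter tests more genes, and the cause of the other moves was not tested. The tissue difference had 324 and, without 1 worker, 302 to 361. Genes under 0.05 in both tissues numbered 17, of which 14 had the same direction, and under 0.01 these counts were 2 and 1.

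With the individual as a block among workers with both tissues, the tissue difference by edgeR again gave 0 genes past the threshold and 262 at an unadjusted p under 0.05. The DESeq2 fit had no such block, so that its calls were not checked in this way. No paired analysis was possible because pBB and mpBB share no replicate number and no individual within a tissue. Of the alternatives for named genes, 627 kept direction and side of the threshold, 9 passed it where the reported test did not, and no direction was reversed. Of the within-tissue fold changes printed for these genes, leaving out a single library moved those of SINVBB1_05182 and SINVBB1_02588 in brain, SINVBB1_07479 and SINVBB1_11369 in gaster and SINVBB1_07805 in both by over 1.5 times, as given above. SINVBB1_05182 in brain stood at -0.84 with DESeq2, and SINVBB1_02588 in brain at 0.49 with surrogate variables. The number split moved more of them by that much. In gaster the values under and over 140 were 0.08 and 1.68 for SINVBB1_11369, 0.90 and 2.35 for SINVBB1_04374, 0.27 and 1.58 for SINVBB1_07805, and -0.66 and -1.33 for SINVBB1_07479. In brain they were -5.09 and -1.11 for SINVBB1_05182, -1.79 and -3.49 for SINVBB1_00563, -0.36 and -1.30 for SINVBB1_01712, and 0.14 and 0.38 for SINVBB1_02588. Below 1 CPM, the interval of the fold change reached past a 2-fold difference for most genes, as given above.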
